A study of Homo sapiens with 10 samples.

Results

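The genes described here make and package melanin: TYR, TYRP1 and DCT, the 3 enzymes of the tyrosinase family, and PMEL and MLANA, proteins of the early melanosome. They were chosen by name, 5 genes in all, and each was followed through its main Ensembl transcripts, 6 of the 187626 transcripts listed (2 for PMEL and 1 for each other gene). The cells were 501Mel, an established human skin melanoma line, so 1 line stands for all groups. RNA-seq of polyadenylated RNA covered 3 libraries given the small interfering RNA siIRF4 and 3 given siCTRL. ChIP-seq covered 2 replicates of IRF4 carrying an eGFP (enhanced green fluorescent protein) tag. The labels give no siRNA dose or time, and nothing says that the RNA libraries came from separate cultures, so p-values measure only the spread between these libraries, which may be technical.

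Melanin is made inside melanosomes, organelles of pigment cells. Tyrosinase carries out the rate-limiting oxidation of tyrosine, DCT (dopachrome tautomerase) and TYRP1 act on later intermediates of eumelanin synthesis, PMEL is cut and assembles into the amyloid fibrils on which melanin is laid down, and MLANA is a small melanosomal membrane protein that interacts with PMEL. MITF, the master transcription factor of melanocytes, drives genes of this kind through an E-box with the core CATGTG, and IRF4 (interferon regulatory factor 4) is known to act with MITF on TYR in melanocytes. The comparison of siIRF4 with siCTRL asks whether the transcripts change when IRF4 is targeted, and the ChIP-seq peaks where tagged IRF4 lies.

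The sequence before the start of each gene is shown because CATGTG is the element through which MITF is known to act on pigment genes and because a ChIP-seq peak lies near the start of TYR. In the set of start sequences used here, 4 of the 5 genes were matched by name and PMEL was not. The sequences are RefSeq's, in GRCh38.p14. Each runs over the 250 bases before the start, on the gene's strand, with every CATGTG or its reverse complement CACATG in capitals. TYR is at chr11:89177625-89177874 (plus strand), TYRP1 at chr9:12693135-12693384 (plus), the second of 2 DCT starts at chr13:94479683-94479932 (minus) and MLANA at chr9:5890639-5890888 (plus).
TYR: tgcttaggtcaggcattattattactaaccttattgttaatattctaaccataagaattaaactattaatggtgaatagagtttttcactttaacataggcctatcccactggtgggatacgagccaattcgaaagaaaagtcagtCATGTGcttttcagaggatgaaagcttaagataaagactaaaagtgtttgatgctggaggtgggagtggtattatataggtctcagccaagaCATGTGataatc
TYRP1: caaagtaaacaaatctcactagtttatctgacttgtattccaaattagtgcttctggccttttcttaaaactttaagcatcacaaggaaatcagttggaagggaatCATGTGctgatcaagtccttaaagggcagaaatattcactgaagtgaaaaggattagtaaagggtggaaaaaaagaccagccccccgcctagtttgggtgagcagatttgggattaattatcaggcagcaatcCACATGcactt
DCT: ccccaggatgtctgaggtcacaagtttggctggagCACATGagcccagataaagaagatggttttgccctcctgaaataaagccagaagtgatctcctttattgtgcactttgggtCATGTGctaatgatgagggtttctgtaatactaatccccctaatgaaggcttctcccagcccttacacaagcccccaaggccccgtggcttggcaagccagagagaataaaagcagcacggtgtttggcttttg
MLANA: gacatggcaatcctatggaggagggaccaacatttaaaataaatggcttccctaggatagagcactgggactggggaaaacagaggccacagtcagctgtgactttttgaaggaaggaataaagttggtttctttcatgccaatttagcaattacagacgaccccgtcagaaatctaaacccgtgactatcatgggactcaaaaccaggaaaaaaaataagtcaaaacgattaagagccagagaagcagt

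Within 250 bases before to 50 after the start, TYR, TYRP1 and the second DCT start each held 2 copies of CATGTG on either strand, and the MLANA window held 0. The window of the other DCT start, not printed, held 0 as well. Counted from the start, the first base of the TYR copies lay at -104 and -12. Those of TYRP1 lay at -144 and -11, and those of DCT at -215 and -134. The longer TCATGTG, which contains CATGTG, occurred 1 time in TYR and TYRP1 and 2 times in DCT. Of all 35116 RefSeq windows of 300 bases, 11.1% held CATGTG and 2.92% held TCATGTG. The interferon-response pattern GAAANNGAAA, searched on both strands, had 1 match among these windows, GAAAGAGAAA from 17 bases after the TYR start, against 3.57% of all windows. The ETS-IRF composite GGAANNGAAA had 1 match, in the first DCT window, against 2.82% of all windows. These matches describe letters and not bound sites.

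Total estimated counts ran from 129989698 to 203758441 per library, and mean fragment lengths from 262.7 to 297.3 bases. Of the 187626 transcripts, 83831 passed the filter on low counts, and all 6 transcripts of the 5 genes were among them. No table used here pairs IRF4 with its transcripts, so the knockdown was not established in any library. The label of siIRF4 replicate 1 is in doubt on this point. The transcript ENST00000380956.8, which is recalled as one of IRF4 but which no table used here assigns to a gene, had 15.3, 2.13 and 1.74 TPM in siIRF4 replicates 1 to 3 and 16.5, 3.44 and 3.77 TPM in siCTRL replicates 1 to 3. It was about as high in the library labelled siIRF4 replicate 1 as in siCTRL replicate 1, and low in the other 4, siCTRL replicates 2 and 3 among them. At each replicate number it was lower in siIRF4 than in siCTRL, by little at replicate 1 (15.3 against 16.5 TPM). It did not set siCTRL replicate 2 apart, which had 3.44 TPM beside 3.77 TPM in siCTRL replicate 3. Whether its level followed the replicate number or a fault in the labels was not tested. If it is a transcript of IRF4, siIRF4 replicate 1 shows no clear knockdown, so every difference given here between siIRF4 and siCTRL is one between labels. Because no table pairs transcripts with genes, other transcripts of the 5 genes, other genes of the pigment pathway and markers of other cell types were not analysed here. In 4 of the 5 genes the library labelled siIRF4 replicate 1 lay with siCTRL replicates 1 and 3, and the library labelled siCTRL replicate 2 lay with siIRF4 replicates 2 and 3. An earlier look at all transcripts of these libraries had set the same 2 libraries apart, so results are given with and without them.

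TYR, the tyrosinase gene, was the steadiest of the 5. Its transcript ENST00000263321.5 (2485 bases) had 299, 223 and 278 TPM (abundance per transcript length, scaled to a total of 1000000 per library) in siIRF4 replicates 1, 2 and 3. It had 277, 247 and 387 TPM in siCTRL replicates 1, 2 and 3. The groups overlapped, with siIRF4 replicate 2 the lowest library and siCTRL replicate 3 the highest. The means were 266 ± 39.3 TPM (SD, n = 3) in siIRF4 and 304 ± 73.8 TPM in siCTRL. The log2 fold change was -0.19 (SE 0.21, 95% interval -0.68 to 0.30), with an adjusted p of 1.00 in edgeR's quasi-likelihood test with Benjamini-Hochberg adjustment over all 83831 transcripts.

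TYRP1, the tyrosinase-related enzyme of late eumelanin synthesis, was the most abundant of the 5. Its transcript ENST00000388918.9 (2851 bases) had 1888, 692 and 762 TPM in siIRF4 replicates 1 to 3. It had 1984, 927 and 1668 TPM in siCTRL replicates 1 to 3. It ranked between 54 and 164 among all transcripts of a library by TPM. siIRF4 replicates 2 and 3 lay below all siCTRL libraries, whereas siIRF4 replicate 1 lay above siCTRL replicates 2 and 3. The log2 fold change was -0.44 (SE 0.47, 95% interval -1.57 to 0.69, edgeR adjusted p = 1.00).

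DCT, which converts dopachrome into a carboxylated indole, varied more. Its transcript ENST00000377028.9 (5064 bases) had 255, 32.4 and 66.9 TPM in siIRF4 replicates 1 to 3. It had 354, 59.1 and 198 TPM in siCTRL replicates 1 to 3. The library labelled siCTRL replicate 2 lay between siIRF4 replicates 2 and 3, and that labelled siIRF4 replicate 1 was second only to siCTRL replicate 1. The log2 fold change was -0.77 (SE 0.89, 95% interval -2.90 to 1.35, edgeR adjusted p = 1.00).

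PMEL, the fibril protein, was followed through 2 transcripts, and others of the gene were not analysed here. The more abundant of the pair, ENST00000449260.6 (2127 bases), had 688, 181 and 232 TPM in siIRF4 replicates 1 to 3. It had 797, 176 and 552 TPM in siCTRL replicates 1 to 3. The lowest library of all was one labelled siCTRL, replicate 2, and the second highest was labelled siIRF4. The log2 fold change was -0.45 (SE 0.69, 95% interval -2.10 to 1.19, edgeR adjusted p = 1.00). The second PMEL transcript, ENST00000548747.5 (2757 bases), reached 0.146 to 0.275 TPM in siIRF4 and 0.217 to 0.512 TPM in siCTRL, from 35.8 to 119 estimated fragments. Its log2 fold change was -0.85 (SE 0.43, 95% interval -1.88 to 0.18, edgeR adjusted p = 1.00).

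The share of the pair's estimated count assigned to ENST00000548747.5 ran from 0.0428% in siIRF4 replicate 1 (95% exact binomial interval 0.0321 to 0.0557) to 0.165% in siCTRL replicate 2 (0.130 to 0.206). It averaged 0.103% ± 0.0581 (SD, n = 3) in siIRF4 and 0.120% ± 0.0468 in siCTRL. The difference of -0.0172 percentage points gave p = 0.7 in a two-sided exact permutation over the 20 ways to pick 3 of 6 libraries, where 0.1 is the smallest p allowed. The difference reversed to 0.0131 without siIRF4 replicate 1 and to 0.0053 without siCTRL replicate 2. The intervals cover counting error only, and the split between overlapping isoforms is itself an estimate. PMEL levels below are the sum of these 2 transcripts, nearly all of it ENST00000449260.6, and not the level of the whole gene.

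MLANA, the small membrane protein also known as MART-1, showed the widest range. Its transcript ENST00000381477.7 (2415 bases) had 234, 11.3 and 28.9 TPM in siIRF4 replicates 1 to 3. It had 263, 21.7 and 219 TPM in siCTRL replicates 1 to 3. There were 3 libraries between 219 and 263 TPM and 3 at 28.9 TPM or less, and each labelled group held some of both. The log2 fold change was -0.85 (SE 1.26, 95% interval -3.85 to 2.16, edgeR adjusted p = 1.00).

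**Figure D1:**
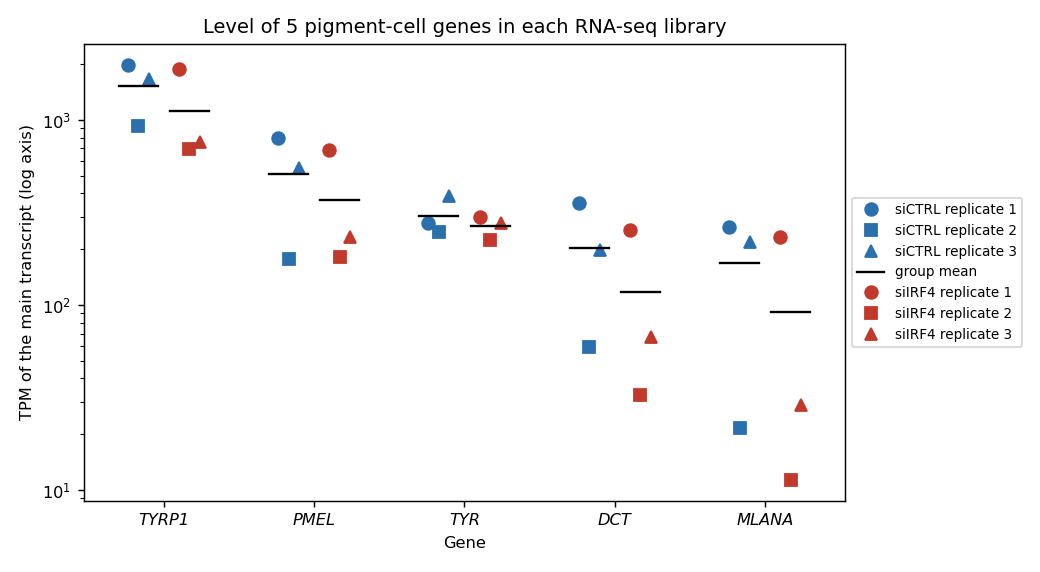
Level of each gene's main transcript (PMEL: ENST00000449260.6) in TPM on a log axis, 1 point per library, blue for siCTRL and red for siIRF4, with symbols for the replicate number and bars at the group means. TYR lies between 223 and 387 TPM in all libraries, whereas MLANA runs from 11.3 to 263 TPM, with the libraries labelled siIRF4 replicate 1 and siCTRL replicate 2 away from their own groups.

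Of the 6 transcripts, 0 passed an adjusted p of 0.05 in edgeR, where 0% of all 83831 transcripts did. At an unadjusted p under 0.05 the count was also 0 of 6, against 2.14% of all transcripts. DESeq2 called 0 of the 6, and 0.137% of the 140278 transcripts with any count. That set was not cut by the filter on low counts and includes any transcript left without an adjusted p. The values of the groups did not overlap for 0 of the 6, against 7.07% of all transcripts tested. All 6 fold changes were below 0, as were 50.7% of all transcripts, and their median was -0.61 against -0.0064 over all. TYRP1, DCT, PMEL ENST00000449260.6 and MLANA were highest in the same libraries, siCTRL replicates 1 and 3 and siIRF4 replicate 1. Their shared sign is therefore not a set of separate results. A difference as large in either direction as that of MLANA was found in 12.3% of transcripts tested, and as large as that of TYR in 60.1%. Each of the 95% intervals given above for the 6 transcripts includes 0, and their lower ends range from -0.68 (TYR) to -3.85 (MLANA).

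The values moved with the library left out, in both directions. Without siIRF4 replicate 1, the log2 fold change was -1.10 for TYRP1, -2.09 for DCT, -1.33 for PMEL ENST00000449260.6, -3.11 for MLANA and -0.31 for TYR, with edgeR adjusted p values of 0.938. Of the 6 transcripts, 3 then had an unadjusted p under 0.05 (TYRP1, DCT and MLANA), where 2.91% of all transcripts did so in the lower direction. Without siCTRL replicate 2, the values were -0.70 for TYRP1, -1.21 for DCT, -0.86 for PMEL ENST00000449260.6, -1.37 for MLANA and -0.32 for TYR. The PMEL transcript ENST00000548747.5 then had an unadjusted edgeR p of 0.026, and 1.90% of all transcripts had one under 0.05 in the lower direction. The adjusted edgeR p values of the 6 were then between 0.936 and 0.949. Both libraries, siIRF4 replicate 1 and siCTRL replicate 2, were set apart with values of the same transcripts in view. The counts under 0.05 in these fits are therefore no independent evidence. Other libraries moved the values towards 0 or past it. Without siCTRL replicate 1, the log2 fold change was -0.11 for DCT, -0.21 for TYRP1, -0.37 for MLANA and 0.025 for PMEL ENST00000449260.6. Without siCTRL replicate 3, that of TYR turned to 0.035 and that of MLANA was -0.60. Without siIRF4 replicate 2, the values were -0.20 for TYRP1, -0.33 for DCT, -0.13 for PMEL ENST00000449260.6, -0.32 for MLANA and -0.093 for TYR. Without siIRF4 replicate 3, they were -0.20 for TYRP1, -0.46 for DCT, -0.18 for PMEL ENST00000449260.6 and -0.41 for MLANA. The adjusted edgeR p values of all 6 transcripts were 1.00 in these 4 fits.

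With both libraries left out, 2 libraries per group remained and the fold changes were wider. MLANA then differed by -3.63 on the log2 scale (SE 0.46, edgeR adjusted p = 0.117), DCT by -2.52 (SE 0.43, 0.140) and PMEL ENST00000449260.6 by -1.74 (SE 0.21, 0.115). TYRP1 differed by -1.36 (SE 0.13, adjusted p = 0.111 in edgeR) and TYR by -0.44 (SE 0.20, 0.483). Again 0 of the 6 passed the adjusted threshold, where 0% of 85498 transcripts did. An unadjusted p under 0.05 was reached by 5 of the 6, all but TYR, against 6.59% of all transcripts in the lower direction. Because these 2 libraries were set apart with values of the same transcripts in view, this fit describes the remaining 4 libraries and is no independent evidence.

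**Figure D2:**
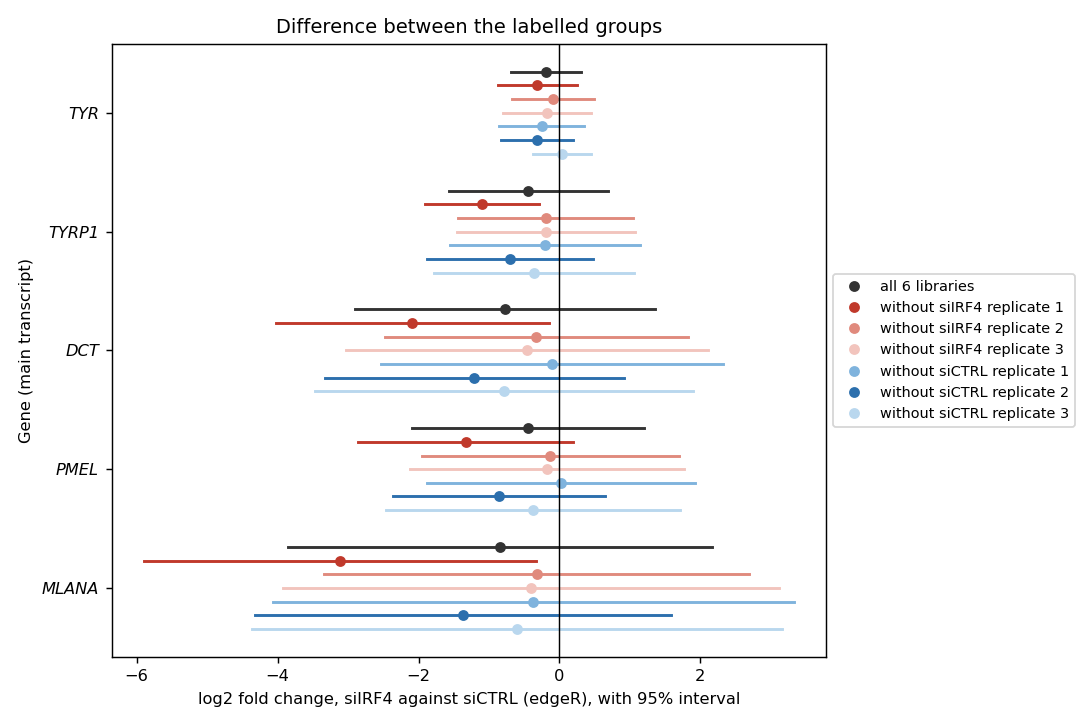
Log2 fold change of each main transcript, siIRF4 against siCTRL, as points with 95% intervals from edgeR, for all 6 libraries (black) and without each library in turn (reds for siIRF4, blues for siCTRL). MLANA moves from -0.85 to -3.11 without siIRF4 replicate 1 and to -0.32 without siIRF4 replicate 2, TYR runs from -0.32 to 0.035, and PMEL reaches 0.025 without siCTRL replicate 1.

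TYRP1, DCT, MLANA and the abundant PMEL transcript were high in the same 3 libraries and low in the same 3, across the labels, but to different extents. In CPM (counts scaled to a library total of 1000000), the highest library exceeded the lowest by 1.73-fold for TYR, 2.77-fold for TYRP1, 4.51-fold for PMEL ENST00000449260.6, 10.6-fold for DCT and 22.4-fold for MLANA. Among the 1963 transcripts that averaged 100 CPM or more, the median of this ratio was 1.37, and 90% lay below 2.20. A ratio at least as large as that of MLANA was found for 2 of these transcripts (0.102%), MLANA included, and one as large as that of DCT for 4 (0.204%), both genes included. The share was 1.38% for PMEL, 5.30% for TYRP1 and 20.1% for TYR. Tyrosinase therefore lay within the common range of abundant transcripts, and DCT and MLANA lay at its edge.

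**Figure D3:**
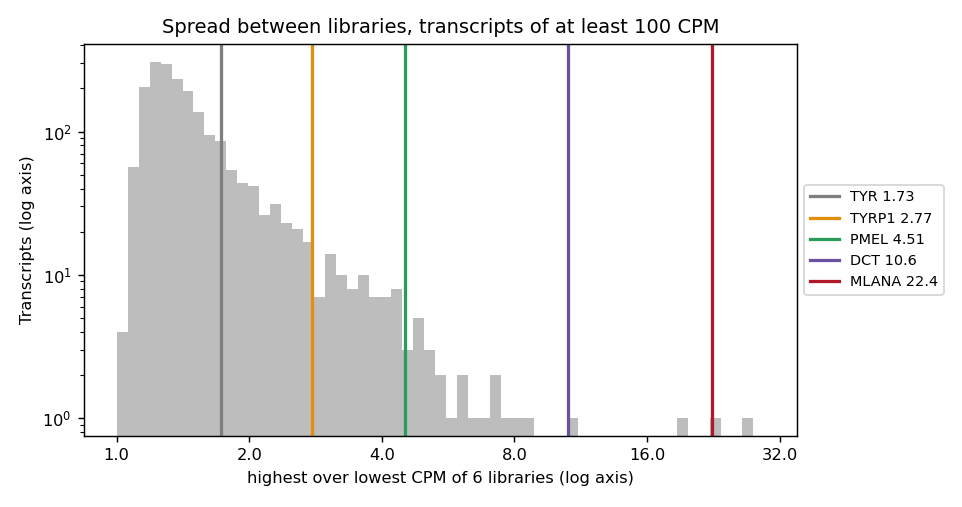
Histogram of the ratio of the highest to the lowest CPM over 6 libraries, for the 1963 transcripts averaging 100 CPM or more, both axes on log scales, with vertical lines at the 5 genes. TYR (1.73) lies in the body of the distribution, and DCT (10.6) and MLANA (22.4) lie among its 4 widest transcripts.

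The same 3 libraries were the highest for TYRP1, DCT, PMEL ENST00000449260.6 and MLANA, in the same order: siCTRL replicate 1, siIRF4 replicate 1, siCTRL replicate 3. These were followed by a step down to the next library of 1.85-fold for TYRP1, 2.43-fold for PMEL, 3.03-fold for DCT and 7.74-fold for MLANA, in CPM. TYR showed no such step, with 434 CPM in siIRF4 replicate 3 and 430 CPM in siCTRL replicate 1 in the middle of its order. For these 4 transcripts both libraries numbered replicate 1 were among the 3 highest, and both numbered replicate 2 among the 3 lowest. The 2 shallowest libraries were siIRF4 replicate 2, lowest in MLANA, and siCTRL replicate 3, among the 3 highest. Their total estimated counts were 135991544 and 129989698. Mean fragment length was 297.3 bases in siCTRL replicate 1 and 294.5 bases in siCTRL replicate 2. No cause of this order was tested, whether replicate number, depth, fragment length or another.

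**Figure D4:**
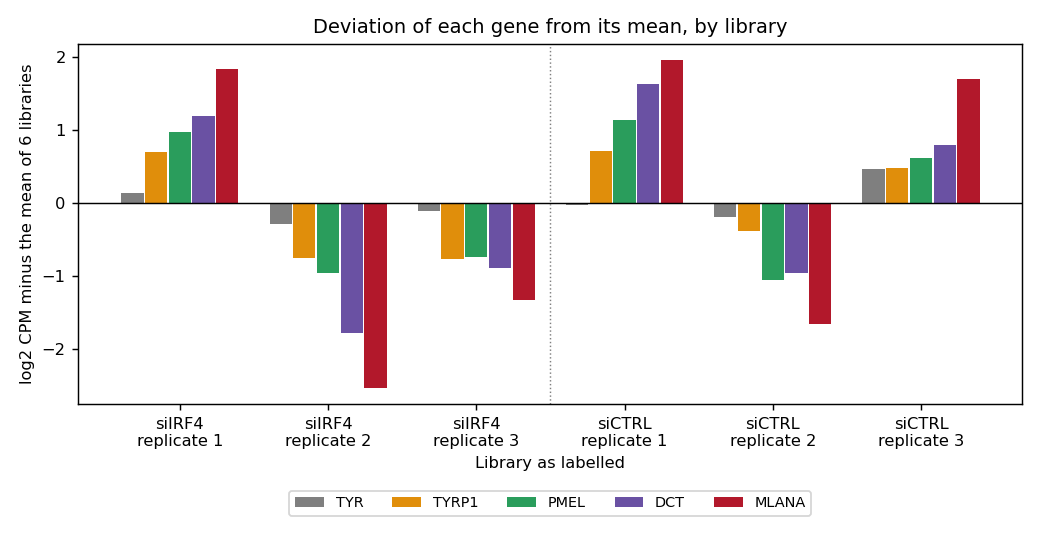
Deviation of each gene's log2 CPM from its mean over 6 libraries, as bars by library in the order of the labels. In siIRF4 replicate 1 MLANA stands at 1.84 and in siCTRL replicate 2 at -1.65, opposite in sign to the other libraries of their groups for all 4 genes other than TYR.

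Likeness of pattern was measured as the root mean square difference of log2 CPM, each transcript centred on its mean of 6 libraries, among 18543 other transcripts averaging 5 CPM or more. The closest pair was TYRP1 and PMEL ENST00000449260.6, which differed by 0.35. Of all transcripts, 269 were closer to PMEL than TYRP1 was, and 955 were closer to TYRP1 than PMEL was. DCT and PMEL differed by 0.41, with 109 transcripts closer to DCT and 395 closer to PMEL. For MLANA the closest of the other genes was DCT, at 0.66, with 69 transcripts closer to MLANA, 358 closer to DCT and a median of 1.89 from MLANA over transcripts. TYR, in contrast, differed from TYRP1 by 0.50, from DCT by 1.11 and from MLANA by 1.68, where the median over transcripts was 0.34. The measure weighs the size of the swings as well as their direction, and it covers only 6 libraries, the same for every transcript, so it is a description. The transcripts closest in pattern carry no gene name in the files and are not named here.

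By level per length, the order of the mean TPM over the 6 libraries was TYRP1 (1320), PMEL (438), TYR (285), DCT (161) and MLANA (130), with PMEL as the sum of 2 transcripts and each other gene as 1. TYRP1 was above PMEL in 6 of 6 libraries, and within each group their ranges did not overlap. PMEL and TYR changed places: PMEL was higher in 3 of 6 libraries, those labelled siIRF4 replicate 1 and siCTRL replicates 1 and 3. TYR exceeded DCT in 5 of 6 libraries, the exception being siCTRL replicate 1 with 277 against 354 TPM. DCT exceeded MLANA in 5 of 6, the exception being siCTRL replicate 3. Apart from TYRP1, the ranges of neighbours in this order overlapped in both groups. Both genes of a pair were measured in the same libraries, so this overlap does not show that their levels are alike.

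The make-up of the total of these 6 transcripts followed the same libraries. The summed level was 3364, 1139 and 1367 TPM in siIRF4 replicates 1 to 3 and 3675, 1431 and 3025 TPM in siCTRL replicates 1 to 3. TYRP1 held between 54.0% and 64.8% of it in every library. TYR held 8.89%, 19.6% and 20.3% in siIRF4 replicates 1 to 3 and 7.55%, 17.3% and 12.8% in siCTRL replicates 1 to 3. MLANA held 6.95%, 0.993% and 2.11% in siIRF4 and 7.15%, 1.51% and 7.23% in siCTRL. The largest part of the difference between libraries was in genes other than TYR.

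Whether the other genes shifted relative to TYR with the label was tested on the log2 ratio of their TPM to that of TYR, a test chosen after the values were seen. The ratio of MLANA to TYR was 0.782, 0.0508 and 0.104 in siIRF4 replicates 1 to 3 and 0.947, 0.0877 and 0.565 in siCTRL replicates 1 to 3. Its mean log2 ratio differed by -1.17 between the groups, with SDs of 2.05 and 1.81. The differences were -0.80 for DCT, -0.37 for TYRP1 and -0.30 for PMEL. In two-sided exact permutations over 20 regroupings, p was 0.5 for MLANA and TYRP1, 0.6 for DCT and 0.7 for PMEL, and adjusted over the 4 ratios each was 0.7. The smallest p this design allows is 0.1, so none could have passed 0.05.

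The ChIP-seq lists held 1 peak of tagged IRF4 around TYR, and it lay near the start of the gene. The window of 50 kb on each side of TYR runs on chromosome 11 from 88861000 to 89079000 in hg19, the assembly whose contig names the lists carry. Replicate 2 listed a peak from 88910024 to 88910621, 598 bases wide, with the authors' score of 244.91. The bounds of the window, rounded to whole kilobases, place the start of TYR at 88911000, and the peak ended 379 bases before that position. This distance is smaller than the 1 kb to which the start is known here, so whether the peak ends before the gene was not determined. The score ranked 6888 of 12831 in the list of replicate 2, where 53.7% of peaks scored as high or higher and the median was 256.74. Replicate 1 listed 0 peaks in the window, so the peak was not shared between the lists. The list of replicate 1 is shorter, with 7568 peaks, a lowest score of 100.01 and a median of 173.68, against a lowest score of 150.01 in replicate 2. The scores are not defined and were not compared between the lists, so a peak missing from replicate 1 does not show that tagged IRF4 was absent there.

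Outside the window, the next peaks lay far away and were placed alike in both lists. Before the gene, the next peak ended 839.8 kb from the implied start of TYR in replicate 1 and 839.6 kb in replicate 2. After the gene, the next began 838.4 kb from its end in both. The body of TYR, 118 kb long, held 0 peaks in either list. Of consecutive windows of 218 kb along chromosome 11, 31.6% held at least 1 peak of replicate 1 and 39.0% at least 1 of replicate 2, so the presence of 1 peak in a window of this size is not unusual. These shares do not measure how often a peak lies this near the start of a gene, which was not tested. The sequence under the peak and peaks near TYRP1, DCT, PMEL and MLANA were not analysed here, and the RefSeq sequence printed for TYR is in another assembly, so whether the peak reaches the CATGTG copies or the GAAAGAGAAA match was not determined.

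**Figure D5:**
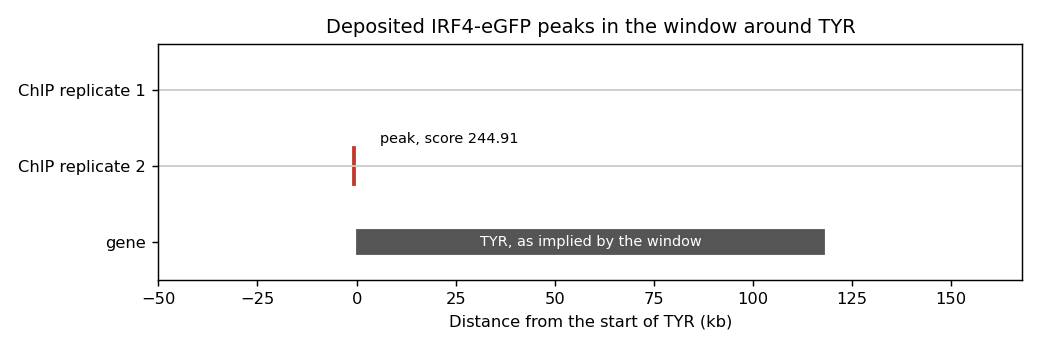
Peaks of tagged IRF4 by distance from the start of TYR in kb, 1 row per ChIP replicate, with the extent of TYR implied by the window as a grey bar. The single peak, of replicate 2, ends 379 bases before the implied start, which is known only to 1 kb, and replicate 1 has none.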

How the data were processed

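RNA-seq values are the estimated counts and TPM (scaled to 1000000 per library) that the authors deposited, 1 table per library, with the columns that kallisto writes per the file headers. The submitters' processing notes name kallisto, sleuth and Bowtie2, and GRCh38 and hg19, without versions or roles. Lengths and effective lengths in bases are also as deposited. The peak lists hold a score per peak, deposited by the authors and not defined in the sources used here. The lists are per replicate. Input samples (2) were not used here.

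The members, lists and alternatives were chosen with earlier results of these data known. Files pair no transcript with a gene, so only the main transcripts given with the selection were used. The planned test per gene was run per transcript. Estimated counts were rounded and tested with edgeR 4.0.16 in R 4.3.3 (quasi-likelihood, TMM, filterByExpr, two-sided, Benjamini-Hochberg, threshold 0.05). Tested transcripts held 99.9% of the estimated count. CPM was computed from library totals, and log2 CPM used TMM and a prior count of 2. The standard error is the absolute log2 fold change over the square root of F, and intervals use the total degrees of freedom. All 5 genes were named by rule. Estimated fragments per library fell to 35.8 for PMEL ENST00000548747.5. No 2 libraries were the same library (chi-square per degree of freedom at least 38.4). The edgeR fit was tested on simulated data. Alternatives were DESeq2 1.42.0, limma 3.58.1 (voom, and log2 of TPM with pseudocounts of 1 and 0.1), other normalizations and filters, the block and left-out libraries. Promoter windows are RefSeq's.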

Additional observations from a re-analysis of the deposited data

How the results depend on the processing

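Over the 16 alternative fits, 0 of the 6 transcripts passed an adjusted p of 0.05, including those without 1 library. The count over all transcripts tested was 0 with edgeR and became 192 with DESeq2 and 8 with limma on log2(TPM + 0.1); the cause was not tested. TYRP1, DCT, MLANA and PMEL ENST00000548747.5 were below 0 in every fit that tested them. The fits reuse the same 6 libraries, and the share of all transcripts that keep their sign was not computed. The constant sign is therefore no separate evidence. Leaving out a library in turn, log2 fold changes ran from -0.32 to 0.035 for TYR (above 0 without siCTRL replicate 3), from -1.33 to 0.025 for PMEL ENST00000449260.6 (above 0 without siCTRL replicate 1), from -1.10 to -0.20 for TYRP1, from -2.09 to -0.11 for DCT and from -3.11 to -0.32 for MLANA. The share of PMEL ENST00000548747.5 differed by -0.0449 to 0.0131 percentage points in these fits, and by 0.0355 with both doubted libraries out. The 1 peak near TYR became 0 in the better-scoring 50% of each list and 0 in the gene body alone, and was 1 with 100 kb on each side. A score of at least 150 could not remove it, since the list of replicate 2 begins at 150.01.

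With the replicate number as a replicate block, 0 transcripts passed, 0 of the 6 among them. DCT was at -0.97 (SE 0.26, unadjusted p = 0.0165, adjusted p = 0.997 in edgeR), MLANA at -1.30, TYRP1 at -0.54 and TYR at -0.17. An unadjusted edgeR p under 0.05 was reached by 1 of the 6, DCT. Of all 83831 transcripts, 2746 reached it, 1492 of them in the lower direction. With the block the SE fell from 0.89 to 0.26 for DCT, from 1.26 to 0.62 for MLANA and from 0.21 to 0.17 for TYR. Deviations from the group means of siIRF4 and siCTRL correlated at 0.20 for replicate 1, 0.24 for replicate 2 and 0.038 for replicate 3. Of the siIRF4 libraries, replicates 1 and 2 correlated best with the siCTRL library of their own number, and replicate 3 with siCTRL replicate 2 (0.057). In CPM, siIRF4 lay below siCTRL at every replicate number for TYRP1, DCT, MLANA and PMEL ENST00000548747.5. The share of all transcripts that do so was not computed, so this order is a description and no evidence of an effect. PMEL ENST00000449260.6 lay above at replicate 2 and TYR at replicate 1. The labels do not say that the numbers pair libraries, so the main fit does not pair them.

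Not run were counts summed per gene, the pathway list, the planned check of the IRF4 level (the values of a transcript recalled as one of IRF4 are given above), the PMEL share over all transcripts of the gene and the order from summed transcripts. Depth limits PMEL ENST00000548747.5 most, with 35.8 to 119 estimated fragments per library.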
